A study of Mus musculus with 2 samples.

Results

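The miR-26 family comprises 3 microRNA genes, Mir26a-1, Mir26a-2 and Mir26b, out of 2202 microRNA genes counted in left cerebral cortex. The 3 genes were taken by symbol as the members of 1 seed family, with earlier results of these data already known. Small RNA was sequenced from tissue of male B6CASTF1/J mice aged 14 days, a strain whose animals are F1 hybrids of C57BL/6J and CAST/EiJ mice. All material belonged to 1 group without any treatment or mutation named in the labels, and it was sequenced as biological replicates 1 and 2. The donor label is the same for both libraries, while the tissue records are separate and each contains the words 3x Males. Whether animals were pooled is not stated, so a standard deviation (SD) here measures the spread between 2 libraries, which may be technical.

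MicroRNAs are cut from hairpin precursors as a 5p and a 3p form, one from each arm, and base-pair with messenger RNAs mainly through the seed, bases 2 to 8 of the mature form. In mouse the genes of this family lie in introns of Ctdspl, Ctdsp2 and Ctdsp1. These host genes encode small C-terminal domain phosphatases, which work with the repressor REST to keep neuronal genes silent outside neurons. In zebrafish, the intronic miR-26b is known to lower the transcript of its host ctdsp2 during neuronal differentiation.

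Mir26a-1 (ENSMUSG00000065513.1) lies at chr9:119031796-119031885 (mm10, plus strand), in intron 5 of the 7 introns of Ctdspl. Mir26a-2 (ENSMUSG00000065430.1) lies at chr10:126995530-126995613 (plus strand), in intron 5 of the 7 introns of Ctdsp2. Mir26b (ENSMUSG00000065468.1) lies at chr1:74394310-74394394 (plus strand), in intron 4 of the 6 introns of Ctdsp1. Each hairpin has the strand of its host, and none overlaps an exon of a host transcript that spans it. The introns are 3283 bases long in Ctdspl, 1946 in Ctdsp2 and 564 in Ctdsp1. The nearest other microRNA gene to Mir26a-2 is Mir546, 2827 bases away, with 0 counts in replicate 2 and 1 in replicate 1. Mir26a-1 and Mir26b lie far from any other annotated microRNA gene, at 1032 and 188 kb.

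The hairpins are shown because their sequence decides which reads can be given to which gene. They come from RefSeq (GRCm38.p6), read 5′ to 3′ on the plus strand, and matched the annotated hairpins base for base. Capitals mark the 5p and the 3p mature forms.
Mir26a-1: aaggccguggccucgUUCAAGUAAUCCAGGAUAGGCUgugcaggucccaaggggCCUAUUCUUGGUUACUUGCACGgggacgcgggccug
Mir26a-2: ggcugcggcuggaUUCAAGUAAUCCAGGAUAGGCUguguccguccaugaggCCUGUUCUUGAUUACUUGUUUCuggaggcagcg
Mir26b: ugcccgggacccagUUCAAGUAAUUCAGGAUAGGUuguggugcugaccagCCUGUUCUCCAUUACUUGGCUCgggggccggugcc

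The mature forms show what the genes share and what tells them apart, with the seed in capitals.
miR-26a-5p (Mir26a-1 and Mir26a-2): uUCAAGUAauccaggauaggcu
miR-26b-5p: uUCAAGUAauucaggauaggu
miR-26a-1-3p: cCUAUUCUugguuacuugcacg
miR-26a-2-3p: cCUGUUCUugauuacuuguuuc
miR-26b-3p: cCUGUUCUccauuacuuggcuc
All 3 genes carry the same 5p seed, and no other of the 1738 mature entries in the RefSeq table has it. Counted from base 1 at the 5′ end and over 21 bases, miR-26b-5p differs from miR-26a-5p by 2 substitutions, C11U and C21U, both outside the seed. The 3p forms fall into 2 seed groups. The seed of miR-26a-1-3p occurs in no other listed form, while miR-26a-2-3p and miR-26b-3p share theirs with each other and with miR-6932-3p and miR-7039-3p. Over 22 bases the 3p forms of the Mir26a copies differ at 6 positions, among them A4G within the seed. The 3p forms of Mir26a-2 and Mir26b differ at 4 positions, none in the seed.

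The start of the 5p arm is printed for both Mir26a copies, from 1 base before the mature form, with the bases that differ between the copies in capitals.
Mir26a-1, chr9:119031810-119031839: GuucaaguaauccaggauaggcugugCAGg
Mir26a-2, chr10:126995542-126995571: AuucaaguaauccaggauaggcugugUCCg
The copies are identical over 25 bases from the start of miR-26a-5p, 3 bases past its end, and first differ at base 26. The base before the start also differs. A read that lies within these 25 bases matches both copies, and in these files a read that matched several positions was given to no gene. Per the labels the libraries held a size range below 30. The longest stretch that Mir26b shares is 11 bases with Mir26a-1 and 10 bases with Mir26a-2. Among the 141767 annotated transcripts, miR-26a-5p occurred in those of Mir26a-1 and Mir26a-2 alone, and each of the other 4 mature forms occurred in those of 1 gene. A genome sequence was not used here.

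**Figure D1:**
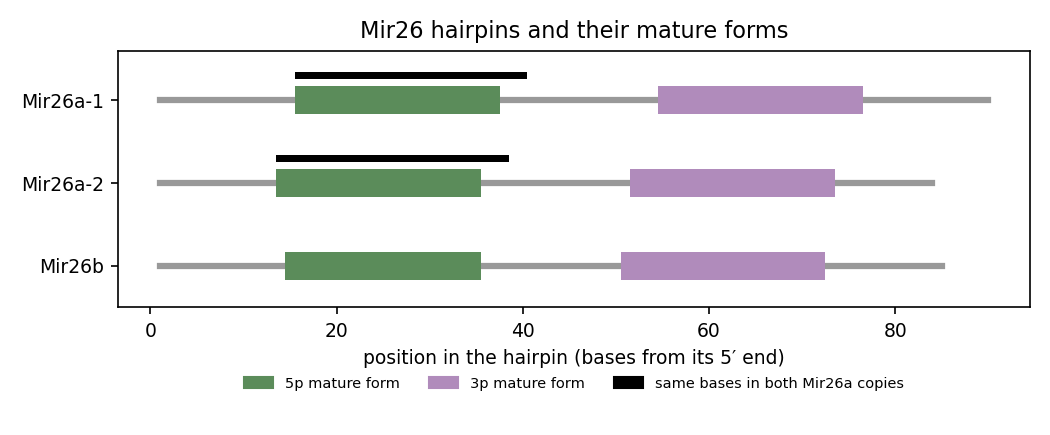
Map of the hairpins of Mir26a-1, Mir26a-2 and Mir26b, to scale in bases from the 5′ end of each hairpin, with the 5p forms (green), the 3p forms (purple) and the stretch that is the same in both Mir26a copies (black). The black bar covers the whole of miR-26a-5p and 3 bases more, 25 bases in all, while the 3p forms lie outside it.

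Counts on the strand of the gene are given raw and as CPM, counts per 1000000 counts in microRNA genes, of which there were 3189903 in replicate 2 and 4111167 in replicate 1. Intervals are exact Clopper-Pearson 95% intervals. They cover counting error only: with no molecular identifiers, several reads can come from 1 molecule. The counts do not separate the 5p from the 3p form of a hairpin. The hairpins are 84 to 90 bases long, and since a mature form gives a read whatever the length of its hairpin, levels are set side by side as CPM per gene; scaling by hairpin length would move a ratio within the family by up to 1.07 times.

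Mir26b held nearly all counts of the family and was the member with the most even level. It had 14114 counts in replicate 2 and 19976 in replicate 1. Its level was 4425 CPM in replicate 2 (interval 4352 to 4498) and 4859 CPM in replicate 1 (4792 to 4927), or 4642 ± 307 CPM (SD, n = 2). By mean CPM it ranked 40 among the 2202 genes. The libraries lay close together, with replicate 2 the lower.

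Mir26a-2 had few counts in one library and many in the other. It had 1175 counts in replicate 2 and 52 in replicate 1. Its level was 368 CPM in replicate 2 (348 to 390) and 12.6 CPM in replicate 1 (9.45 to 16.6). The mean of 190 ± 252 CPM (SD, n = 2) therefore describes neither library: the gene ranked 154 in replicate 2 and 313 in replicate 1.

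Mir26a-1 had the lowest level of the family in both libraries. It had 32 counts in replicate 2 and 9 in replicate 1, or 10.03 CPM (6.86 to 14.2) and 2.19 CPM (1.00 to 4.16). Both lay above the level that 0 counts would still allow, 3 counts, which was 0.940 CPM in replicate 2, against 0.730 CPM in replicate 1. Its mean was 6.11 ± 5.55 CPM (SD, n = 2).

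The order Mir26b, Mir26a-2, Mir26a-1 held in each library. Between Mir26b and Mir26a-2 the gap in mean CPM was larger than either SD. Between the Mir26a copies the gap in mean CPM was smaller than the SD of Mir26a-2, although the point values of the copies did not overlap. Across libraries their intervals did: 9.45 to 16.6 CPM for Mir26a-2 in replicate 1 and 6.86 to 14.2 CPM for Mir26a-1 in replicate 2. Reads confined to the shared 25 bases are in neither copy's count, so these levels do not measure miR-26a-5p, and the gap between Mir26b and the Mir26a copies cannot be read as the gap between the mature forms. In bulk tissue, fewer cells of a type and less RNA per cell cannot be told apart.

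**Figure D2:**
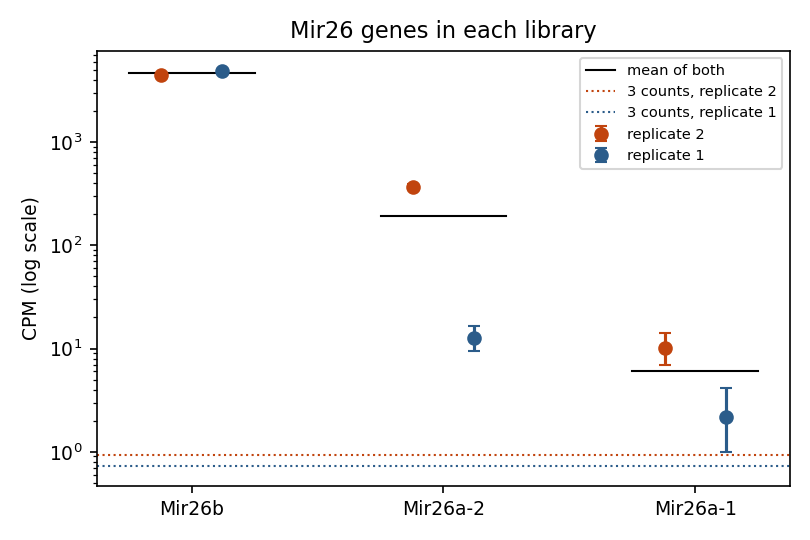
CPM (log axis) of Mir26b, Mir26a-2 and Mir26a-1 in replicate 2 (orange) and replicate 1 (blue), with exact 95% intervals, the mean of both libraries (black bar) and the level of 3 counts in each library (dotted). Mir26b lies at 4425 and 4859 CPM, while Mir26a-2 lies at 368 CPM in replicate 2, against 12.6 CPM in replicate 1.

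The summed counts of the family differed little between the libraries. Nearly all of this sum is Mir26b, and reads confined to the 25 bases shared by the Mir26a copies are not in it. The family held 15321 counts, or 0.480% of all counts (0.473 to 0.488), in replicate 2. In replicate 1 it held 20037 counts, or 0.487% (0.481 to 0.494). The mean was 0.484% ± 0.00501 (SD, n = 2). The log2 ratio of the sum, replicate 2 over replicate 1, was -0.02 (-0.05 to 0.01), an interval that includes 0. With library sizes from TMM it was 0.06 (0.03 to 0.09) and with DESeq2 size factors 0.06 (0.03 to 0.09), alternatives chosen after seeing the data, so the direction of so small a ratio turned with the scaling.

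The composition of the family's counts, which leave out those shared reads, differed between the libraries. Mir26b made up 92.1% of the family's counts in replicate 2 (91.7 to 92.5) and 99.7% in replicate 1 (99.6 to 99.8). Mir26a-2 made up 7.67% in replicate 2 (7.25 to 8.10) and 0.260% in replicate 1 (0.194 to 0.340). Mir26a-1 made up 0.209% in replicate 2 (0.143 to 0.295) and 0.0449% in replicate 1 (0.0205 to 0.0852). For each member the intervals of the libraries did not overlap. The number of Mir26b counts for each Mir26a-2 count was 12.0 in replicate 2 (11.3 to 12.8) and 384 in replicate 1 (293 to 515).

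To set the members against the rest of the profile, each gene with at least 10 counts in each library was tested with a two-sided exact binomial test of its split between the libraries against that of the library totals, with Benjamini-Hochberg adjustment over all 406 such genes and a threshold of 0.05. The test compares 2 libraries, allows for the sampling of reads only, and compares no conditions. Of the 406 genes 58.1% passed, 23.4% higher and 34.7% lower in replicate 2, so passing it is common. With plain totals 95 genes were higher and 141 lower; the numbers were 111 and 110 under TMM library sizes and 112 and 108 under DESeq2 size factors. Mir26a-2 and Mir26b were tested and both passed; Mir26a-1 fell below the count minimum in replicate 1.

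Mir26b was lower in replicate 2, with a log2 ratio of -0.14 (exact interval -0.17 to -0.10; adjusted p = 5.47e-17, exact binomial test). This is smaller than the median absolute log2 ratio of all 406 genes, 0.30, and 57.1% of them had a higher ratio. It was -0.06 with TMM library sizes (adjusted p = 0.00103, exact binomial test) and -0.05 with DESeq2 size factors (adjusted p = 0.00208, exact binomial test). The ratios of 42 other genes with a mean CPM within 2-fold of Mir26b ran from -1.98 to 2.06, with a median of -0.14.

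Mir26a-2 was higher in replicate 2, with a log2 ratio of 4.86 (4.46 to 5.29), or 29.1-fold (22.1 to 39.2). Its adjusted p was listed as 0 because it lay below the smallest number the software can hold (exact binomial test). No other of the 406 genes had so large a ratio in either direction: the next in the same direction stood at 3.11, and the lowest at -2.97. Among the 406 genes 5.17% were over 2-fold higher and 4.68% over 2-fold lower in replicate 2, 9.85% in all. Of 64 other genes with a mean CPM within 2-fold of Mir26a-2, 9 were over 2-fold apart and their ratios ran from -2.69 to 1.11. The gap between the libraries at Mir26a-2 was already known when the family was chosen, so it is given as a description.

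Mir26a-1 had a log2 ratio of 2.20 (1.10 to 3.45), or 4.58-fold (2.14 to 10.9). With no count minimum it entered the test and was higher in replicate 2 (adjusted p = 4.54e-05, exact binomial test). That p-value allows for the sampling of reads only and exists only without the minimum, so the ratio of Mir26a-1 is given as a description too. Of the 406 genes only 2 had a higher ratio, one of them Mir26a-2. The 406 leave out Mir26a-1 itself and all other genes that miss the minimum. Of such genes named below, Mir9-2 (9 and 1 counts in replicates 2 and 1) stood at 3.54 and Mir124a-3 (8 and 2) at 2.37. Mir124a-1 (19 and 9) stood at 1.44 and Mir124a-2 (3 and 11) at -1.51. Summed, the Mir26a copies took 1207 counts from replicate 2 and 61 from replicate 1, with a log2 ratio of 4.67 (4.30 to 5.07). Both copies thus lay above their replicate 1 level in replicate 2 while Mir26b lay slightly below it.

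**Figure D3:**
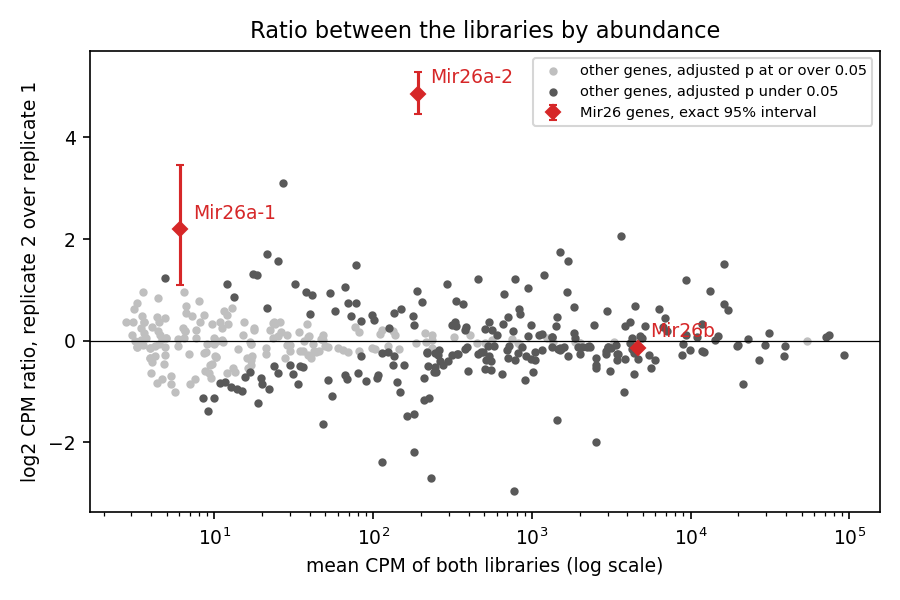
Log2 CPM ratio, replicate 2 over replicate 1, against mean CPM (log axis) for the 406 genes with at least 10 counts in each library and Mir26a-1, with the Mir26 genes in red and their exact 95% intervals. Mir26a-2 (4.86) lies above every other point, Mir26a-1 (2.20) near the top of the plotted genes of low count, and Mir26b (-0.14) in the middle. Other genes that miss the count minimum are not plotted.

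The Mir26a copies share a 25-base stretch, and many microRNA genes share a stretch of at least 18 bases. Of the 2202 genes, 1135 share at least 18 bases with another microRNA gene that they do not overlap, Mir26a-1 and Mir26a-2 among them and Mir26b not. Of these, 91 reached 10 counts in each library. Their median log2 ratio was -0.02 and 8.79% were over 2-fold apart. Of the 315 genes that reached it and share no such stretch, the median was -0.10 and 10.2% were over 2-fold apart. The 5th and 95th percentiles of the ratio were -0.84 and 1.00 among the genes that share a stretch and -0.995 and 1.00 among those that do not. Mir26a-2, itself among the 91 genes, lay above them. Mir26a-1 missed the count minimum and is in neither set, so its ratio cannot be placed among these percentiles.

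The Mir26a copies were also set beside 20 other pairs of genes annotated as copy 1 and copy 2 of a mature microRNA, whose hairpins share 22 to 28 bases. Mir26a-2 had 36.7 counts for each Mir26a-1 count in replicate 2 (25.9 to 53.9) and 5.78 in replicate 1 (2.82 to 13.3). As a share, Mir26a-2 held 97.3% of the copies' counts in replicate 2 (96.3 to 98.2) and 85.2% in replicate 1 (73.8 to 93.0). The copy ratio was thus 6.36-fold higher in replicate 2, a log2 change of 2.67, which rests on the 9 counts of Mir26a-1 in replicate 1.

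In 17 of the 20 other pairs each copy had at least 10 counts in each library, and in 16 of these 17 the copy ratio changed by under 2-fold. The median absolute log2 change was 0.37. The lowest change was that of the Mir103 pair, -0.99, whose ratio of copy 2 to copy 1 was 3.08 in replicate 2 and 6.13 in replicate 1. The highest was that of the Mir181a pair, 1.08, with 0.0323 in replicate 2 and 0.0153 in replicate 1. The Mir26a pair, which does not meet that count minimum, lay above all 17. The Mir29b pair, whose hairpins share 25 bases as well, changed by -0.09, with log2 ratios of -0.07 for Mir29b-2 and 0.02 for Mir29b-1. This pair was named after its values were seen, and its absolute change lies below the median of the 17. The Mir19b pair shares 25 bases too but had too few counts for a change of ratio. In replicates 2 and 1 it had 0 and 4 counts of Mir19b-1 and 0 and 1 of Mir19b-2. What a shared stretch of this length does to the split was not tested.

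**Figure D4:**
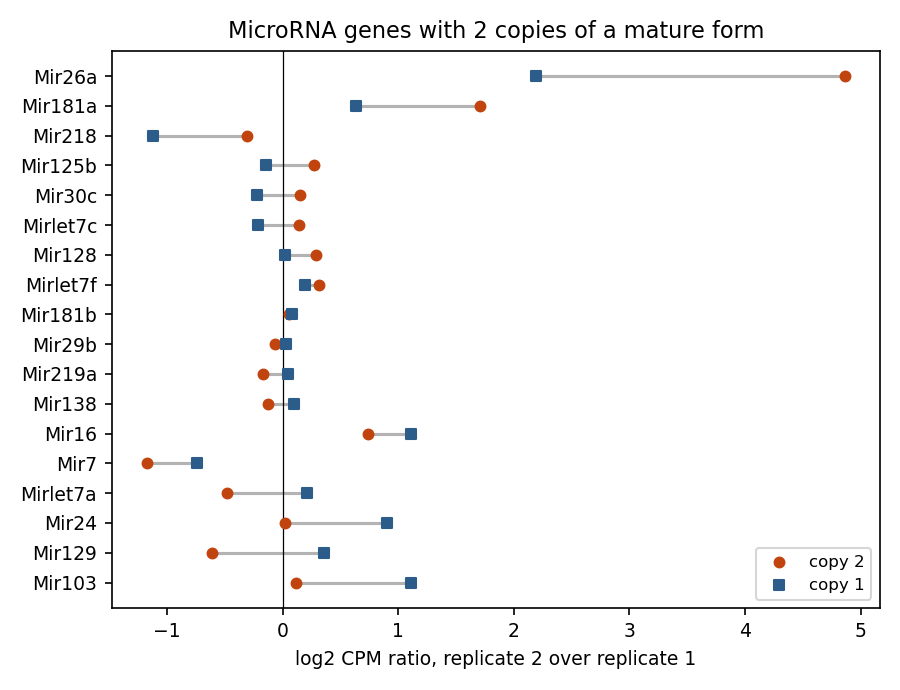
Log2 CPM ratio, replicate 2 over replicate 1, of copy 2 (orange circles) and copy 1 (blue squares) for the Mir26a pair and the 17 other pairs with at least 10 counts of each copy in each library, ordered by the change of the copy ratio. Copy 2 and copy 1 of Mir26a lie at 4.86 and 2.20, to the right of both copies of every other pair.

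Genes with a profile like those of the family were found by Euclidean distance over the 2 libraries on the log2(CPM + 1) scale, among the genes with at least 10 counts in each library. Mir98, a let-7 relative on chromosome X, was nearest to Mir26b at a distance of 0.115, with 4450 CPM in replicate 2, against 4489 CPM in replicate 1. Mir361 followed at 0.139, with 4022 CPM in replicate 2, against 4784 CPM in replicate 1. Gm26117 was nearest to Mir26a-1 at 0.567, with 6.90 CPM in replicate 2, against 2.92 CPM in replicate 1. Mir3069 followed at 0.786, with 8.46 CPM in replicate 2, against 4.38 CPM in replicate 1. Mir26a-1 itself misses that count minimum, and genes that miss it were not candidates. Mir124a-1 was left out in this way, with 5.96 CPM in replicate 2, against 2.19 CPM in replicate 1. For Mir26a-2 no gene came close. The nearest, annotated as Snord43, lay at 2.33, with 115 CPM in replicate 2, against 41.1 CPM in replicate 1, and Mir375 followed at 2.64, with 89.3 CPM in replicate 2, against 43.1 CPM in replicate 1.

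A list of 13 microRNA genes known to act with, on or under REST was set beside the family. Of these, 9 reached 10 counts in each library, and all 9 passed the exact binomial test, 3 higher and 6 lower in replicate 2, with a median log2 ratio of -0.19 against -0.08 over all 406 genes. Over all 406 genes 58.1% passed, 23.4% higher and 34.7% lower. The share was 76.6% of the 64 genes at the level of Mir26a-2 and 95.2% of the 42 at that of Mir26b. The mean CPM of the 9 ran from 9.95 to 16177, so neither set matches them in level. Whether the list stands apart was not tested. Mir132, which neuronal activity induces, stood at 20125 CPM in replicate 2, against 12230 CPM in replicate 1, above Mir26b in each library. Its cluster partner Mir212 stood at 443 and 664 CPM in replicates 2 and 1. Mir137, a microRNA of neuronal maturation, stood at 9204 CPM in replicate 2, against 10488 CPM in replicate 1. Mir29a lay below Mir26b, at 1977 CPM in replicate 2, against 2162 CPM in replicate 1.

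The remaining REST-related genes that reached the minimum lay below Mir29a and Mir212. Mir135b stood at 85.9 CPM in replicate 2, against 240 CPM in replicate 1. Mir9-3, a copy of the microRNA that targets the REST transcript, stood at 115 CPM in replicate 2, against 86.4 CPM in replicate 1. Its copy Mir9-1 stood at 26.3 CPM in replicate 2, against 10.7 CPM in replicate 1. The copies of Mir218 were lower in replicate 2: Mir218-2 stood at 74.9 CPM in replicate 2, against 92.9 CPM in replicate 1, and Mir218-1 at 6.27 CPM in replicate 2, against 13.6 CPM in replicate 1. Mir9-2 and the 3 copies of Mir124a, known as abundant in neurons, stayed under the minimum in at least 1 library, with 3 to 19 counts in replicate 2 and 1 to 11 in replicate 1. Like the Mir26a copies, they share at least 18 bases with another microRNA gene and reads that match several positions are counted for none of them, so their low counts do not measure the mature form.

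**Figure D5:**
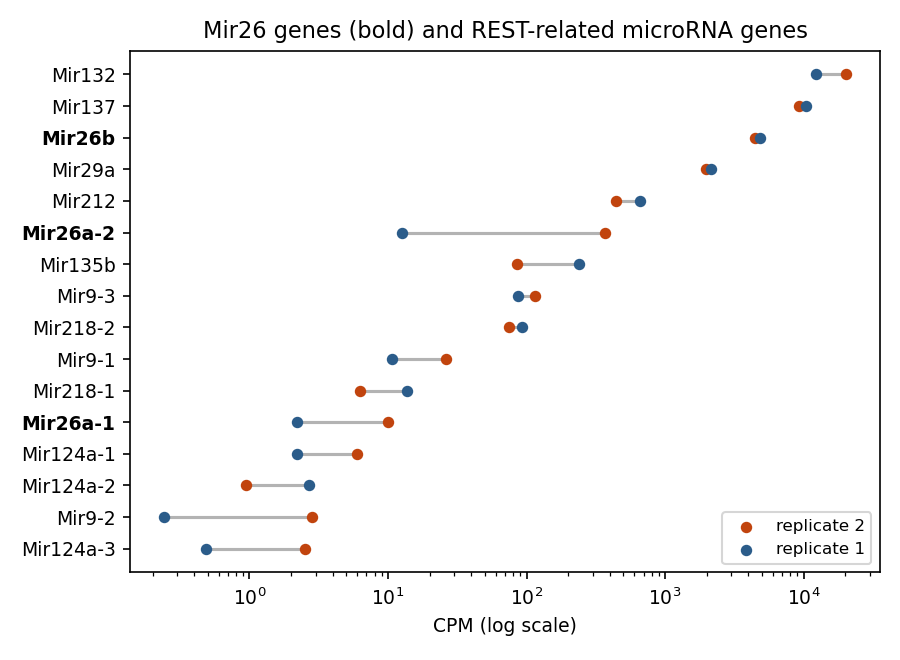
CPM (log axis) of the 3 Mir26 genes (bold) and the 13 REST-related microRNA genes in replicate 2 (orange) and replicate 1 (blue), ordered by mean CPM. Mir26b lies between Mir137 and Mir29a, and Mir26a-2 has its points far apart, at 368 CPM in replicate 2, against 12.6 CPM in replicate 1.

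The labelled tissue was checked with markers. Of 9 neuronal markers 6 reached 10 counts in each library, all but the 3 copies of Mir124a, and the 9 summed to 56145 CPM in replicate 2, against 48111 CPM in replicate 1. Without Mir132 the other 8 summed to 36020 CPM in replicate 2, against 35881 CPM in replicate 1, a sum added after seeing the data. Oligodendrocyte markers (2 genes) summed to 2521 CPM in replicate 2, against 2855 CPM in replicate 1, and the endothelial Mir126a stood at 13176 CPM in replicate 2, against 10449 CPM in replicate 1. Smooth muscle and pericyte markers (2 genes) summed to 5217 CPM in replicate 2, against 5074 CPM in replicate 1. Of these, Mir143 was higher in replicate 2 (5016 against 4840 CPM) and Mir145a lower (201 against 234 CPM). Leukocyte and microglia markers (3 genes) summed to 884 CPM in replicate 2, against 958 CPM in replicate 1. Mir150 held most of that sum, at 799 against 827 CPM. Mir142 was lower in replicate 2 (65.8 against 114 CPM) and Mir223 higher (19.1 against 16.5 CPM). The erythroid Mir451a stood at 70.5 CPM in replicate 2, against 37.0 CPM in replicate 1, and the liver marker Mir122 at 48.0 CPM in replicate 2, against 51.8 CPM in replicate 1. Of 5 muscle markers Mir206 alone had counts and the other 4, the copies of Mir1a and Mir133a, share sequence between copies; Mir206 stood at 23.8 CPM in replicate 2, against 20.7 CPM in replicate 1. The part of any of these in the split of the Mir26a copies was not tested.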

How the data were processed

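The authors deposited raw read counts per microRNA gene for each of 2 small RNA libraries, without normalization. The build is mm10 and the annotation GENCODE M21, per the descriptions deposited with the files; the sources used here name neither the aligner nor the counter. The 3 count columns of each deposited file were read from their layout, which no source states, as counts that ignore strand, counts on the strand of the gene (used here) and counts on the opposite strand; for the 3 Mir26 genes the first and second columns are equal and the third is 0. All 2202 gene IDs matched GENCODE M21 microRNA genes. Libraries held 8758378 reads in replicate 2 and 11224232 in replicate 1, of which 36.4% and 36.6% were counted in genes. Library totals are sums over gene rows.

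CPM, shares, exact intervals and exact binomial tests were computed with scipy 1.17.1. The test was run on simulated counts that vary by the sampling of reads alone. Those counts cannot show how the test behaves between real libraries. TMM factors came from edgeR 4.0.16 and size factors from DESeq2 1.42.0. With 1 group of 2 libraries no model across samples has a contrast, so no test over samples was made. Of 23 listed copy pairs, Mir92a and Mir101 have no copy 1 and copy 2 under those names in the annotation. The Mir7a pair is annotated as Mir7 and was taken under that name. Genes annotated as Mir92-1 and Mir92-2 were not taken as a pair, so they are not among the 20 other pairs. Their log2 ratios, replicate 2 over replicate 1, were -0.05 and -0.06. Named genes are the family, the 2 nearest profiles of each member, the REST-related genes past the count minimum and the copy pairs with the lowest and highest change. The cell type markers were named from a list of their own. Mir29b, Mir19b, Mir124a, Mir9-2, Mir546, Mir92-1, Mir92-2 and the Mir16 and Mir7 pairs were added after their values were seen. The members and lists were chosen with earlier results of these data known. Alternatives were strand-ignoring counts, other scalings, count minimums of 0 and 50, pseudocounts of 0.1 and 10 CPM, an adjusted p under 0.01, totals without Mir139, the family without Mir26a-2, and each replicate left out.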

Additional observations from a re-analysis of the deposited data

Results flagged for a closer look

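Reads that matched several genomic positions lie outside the counts used for the family and were numerous in both libraries. Their share was 41.4% in replicate 2 and 39.1% in replicate 1, or 237 and 219 such reads for each read counted in a Mir26 gene. How many of them carry miR-26a-5p was not analysed here.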

How the results depend on the processing

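All log2 ratios of Mir26b and Mir26a-2 kept their direction and their side of the threshold under every alternative run. Of 65 values under alternatives that keep both libraries, 9 moved beyond their tolerance (1 SD for levels and shares, 1.5 times for counts of genes, the exact interval for untested ratios). The SD of the Mir26a copies is as large as their means or nearly so, so for their levels this tolerance could hardly be missed and says nothing: scaled to all reads, Mir26a-2 stood at 69.4 and Mir26a-1 at 2.23 per 1000000 reads. The same scaling gave 1696 for Mir26b and 0.177% for the family; ignoring strand gave 4984 CPM and 0.519%. The family held 0.533% of a total without Mir139 and 0.465% without Mir26a-2; these moves follow from the totals and members used. The log2 ratio of the family sum was 0.0583 with TMM factors and 0.0614 with DESeq2 size factors, both added after seeing the data. With a pseudocount of 10 CPM the log2 ratio of Mir26a-1 was 0.72 and that of Mir26a-2 was 4.06, since the pseudocount is above the level of Mir26a-1 in replicate 1. Leaving out a replicate gives the other library's value, from 12.6 to 368 CPM for Mir26a-2 and from 5.78 to 36.7 for the copy ratio, and says nothing about stability. Depth limits Mir26a-1 most, with 9 counts in replicate 1.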

Other observations

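The pairs named here were chosen after their values were seen. Of the 17 other copy pairs with at least 10 counts of each copy in each library, Mir16 had both copies higher in replicate 2: for Mir16-1, replicate 2 held 1274 counts and replicate 1 held 762 (log2 ratio 1.11), and Mir16-2 had 279 and 215 counts (0.74). For Mir181a-2, replicate 2 held 104 counts and replicate 1 held 41 (1.71), and Mir181a-1 had 3224 and 2679 (0.63). The Mir7 pair lay in the other direction, with 409 counts of Mir7-2 in replicate 2 and 1192 in replicate 1 (-1.18), and 254 and 547 of Mir7-1 (-0.74). None of these 17 pairs had a copy with a log2 ratio above 1.71. Copies of Mir9 and Mir124a were not on the list of pairs. Of their copies under the count minimum, Mir9-2 (9 and 1 counts in replicates 2 and 1) stood at 3.54 and Mir124a-3 (8 and 2) at 2.37. Mir124a-1 (19 and 9) stood at 1.44 and Mir124a-2 (3 and 11) at -1.51.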
